A study of Mus musculus with 6 samples.

Results

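The genes described here are 35 genes of the p53 pathway, among the 24421 genes in the count table: p53 itself, its regulators and genes known or reported as its transcriptional targets. They were chosen by symbol, with results of the knockout comparison already known, so their values in it are a description and support nothing by themselves. All 35 symbols were found, and 33 passed the filter on low counts; Fas and Gdf15 did not. The RNA came from isolated endothelial cells of mouse retinas, collected at postnatal day 7 (P7), 3 samples per group, on a mixed BL6/CD1 background. Pups of the Smad4-iECKO group carried floxed Smad4 alleles with Cdh5-CreERT2, a Cre recombinase that tamoxifen activates and that an endothelial promoter drives. For the Smad4f/f group, the controls, the labels list the floxed alleles and no Cre. Tamoxifen was given at postnatal day 1, and the labels give this protocol for both groups. Smad4 encodes the mediator shared by BMP and TGF-beta signalling. The labels do not say whether a sample held 1 pup or several, so every error below measures the spread between these samples.

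The transcription factor p53 is kept low by MDM2, a ubiquitin ligase that marks it for degradation, and it is stabilised by DNA damage and other stresses without the need for more Trp53 mRNA. It then binds a response element made of a pair of decamers and raises genes that arrest the cell cycle, among them Cdkn1a, genes that promote cell death, genes of DNA repair, and Mdm2 itself, which closes a feedback loop. Cdkn1a, which encodes the cyclin-dependent kinase inhibitor p21, also has p53-independent inputs, including SMAD complexes downstream of TGF-beta.

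Promoter sequences are shown to place the response element in the genes themselves. Targets of p53 are known partly by such elements, so the shares below are a description that the choice of genes partly fixed. RefSeq promoters (GRCm38.p6, 250 bases before to 50 bases after the start) were matched for 26 of the 35 genes, with 37 promoters in all. The motif searched was the p53 response element: 2 copies of the p53 decamer, which reads the same on both strands, with a spacer of 0 to 13 bases, at most 2 mismatches over both and the central C and G of each decamer kept. Such a full site was found in 5 of the 26 genes (19.2%), against 4.71% of all 27025 genes with a promoter in the table. The best-matching full site of each of the 5 genes follows, with the decamers in capitals and the spacer in lower case.
Cdkn1a site: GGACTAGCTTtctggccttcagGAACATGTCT
Ccng1 site: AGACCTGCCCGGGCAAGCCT
Bax site: AGGCAAGCTTtGAACTTGCGG
Gadd45a site: GGACCTGGTTggctgaGGGCTAGCCC
Sesn1 site: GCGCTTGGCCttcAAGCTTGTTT
Each of these 5 promoters held 2 full sites, of which 1 is printed. The printed Cdkn1a site (chr17:29090906-29090937, plus strand) started 73 bases before the first of 2 RefSeq starts of the gene and had 0 mismatches with a spacer of 12 bases. The other Cdkn1a site pairs its GAACATGTCT with the TGACATGTTC that follows directly, with 1 mismatch and a spacer of 0. A full site without a mismatch was in 20 of the 27025 genes (0.074%). The Ccng1 site (chr11:40755462-40755481, minus strand), 195 bases before the start, had 1 mismatch and a spacer of 0. The sites of Bax (chr7:45467079-45467099, minus strand), Gadd45a (chr6:67037438-67037463, minus strand) and Sesn1 (chr10:41887253-41887275, plus strand) had 2 mismatches each. The promoter of the other Cdkn1a start (chromosome 17, 29093519 to 29093818) and that of the other Sesn1 start held 0 exact decamers and 0 full sites. An exact single decamer, counted whether or not it was part of a full site, was in 10 of 26 genes (38.5%), against 9.55% of all genes with a promoter. These 10 were Cdkn1a, Ccng1, Mdm2, Bax, Trp53, Gadd45a, Sesn1, Aen, Polk and Ei24. The search was limited to these windows, and a match is a description of the letters. The 250 bases upstream of the Cdkn1a start with the site (chr17:29090729-29090978, plus strand) and of the Ccng1 start (chr11:40755287-40755536, minus strand) show the printed sites in place, again in capitals.
Cdkn1a upstream: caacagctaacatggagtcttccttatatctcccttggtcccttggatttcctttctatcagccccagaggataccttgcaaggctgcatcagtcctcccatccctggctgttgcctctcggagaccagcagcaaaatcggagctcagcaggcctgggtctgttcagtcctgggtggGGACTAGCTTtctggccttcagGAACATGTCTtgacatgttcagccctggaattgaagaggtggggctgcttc
Ccng1 upstream: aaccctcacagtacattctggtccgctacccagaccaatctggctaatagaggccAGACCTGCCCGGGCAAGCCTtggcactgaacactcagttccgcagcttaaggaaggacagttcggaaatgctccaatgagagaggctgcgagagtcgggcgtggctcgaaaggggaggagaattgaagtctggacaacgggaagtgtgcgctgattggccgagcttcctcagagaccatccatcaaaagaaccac

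Libraries differed in depth and in cell content. The Smad4f/f libraries held 12633018 to 23164952 counts. Smad4-iECKO replicates 1 and 3 held 17677696 and 12680649 counts, and replicate 2 held 2233360. A count of 3, the limit that a count of 0 allows, is worth 1.39 CPM (counts scaled to library size with TMM factors) in the shallow Smad4-iECKO replicate 2 and 0.123 to 0.239 CPM elsewhere. The targeted gene Smad4 was at 139.9 ± 26.5 CPM in Smad4f/f and 118.5 ± 21.6 CPM in Smad4-iECKO (SD, n = 3 each), and a count over the whole gene does not check the deletion. Summed endothelial markers (20 genes) ran from 1924 to 9633 CPM in Smad4f/f and from 3387 to 6982 CPM in Smad4-iECKO, with Pecam1, Cdh5 and Kdr in every library. Rod photoreceptor markers (14 genes) summed to 6843 to 13306 CPM in all 6 libraries, so transcripts of these neurons were present in every library. Microglia and macrophage markers (16 genes, 14 of 16 with positive log2 fold changes, none at 0 in every library) summed to 42.4 to 69.2 CPM in Smad4f/f and 89.6 to 140.9 CPM in Smad4-iECKO, without overlap. Retinal progenitor markers (10 genes, 3 of 9 tested positive) also did not overlap, at 335.1 to 379.97 and 402.7 to 545.1 CPM. A large part of these sums came from Ccnd1, at 117.4 to 178.6 and 205.2 to 298.1 CPM. It was the only tested gene of this list without overlap, and the median log2 fold change of the list was -0.15. The other 11 marker lists overlapped between the groups, and Lum, Hba-a1, Hba-a2, Hbb-bs, Hbb-bt and Mlana were at 0 in every library. The erythroid genes Alas2 and Slc4a1 reached 39.9 and 12.9 CPM in Smad4f/f replicate 3, so the 0 of the haemoglobin genes does not show that erythroid RNA was absent. The part of these cell types in the results below was not tested, and in bulk RNA fewer cells of a type and less RNA per cell cannot be told apart. Titles carry a prefix, Lit38 for replicates 1 and 3 and Lit40 for replicate 2 of either group, called prefix 38 and prefix 40 here; its meaning is not stated.

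Of the 33 genes tested, 14 had all 3 Smad4-iECKO libraries above the highest control: Eda2r, Phlda3, Dcxr, Pvt1, Ces2e, Cdkn1a, Ephx1, Mgmt, 9030617O03Rik, Zmat3, Tnfrsf10b, Bbc3, Aen and Ccng1. Over all 14362 tested genes 2.48% did so, but the choice of genes used this comparison and nothing is read from the contrast between these shares. Eda2r, Dcxr, Ces2e and Mgmt were too low in the controls to pass the filter on low counts by those libraries alone. They passed it only through the Smad4-iECKO libraries, where they were higher. Their place in counts, medians and rankings of the set, here and wherever this filter was used below, was thus partly fixed by it. In 1 gene, Perp, the Smad4-iECKO libraries were all lower (2.83% of all tested genes), and in 18 the groups overlapped. Perp, with a count of 0 in Smad4-iECKO replicate 2, would not have passed the filter by the Smad4-iECKO libraries alone. It passed with the controls, where it was higher, so its place was partly fixed by the filter too. The median log2 fold change over the 33 genes was 0.47, beside -0.02 over all tested genes, and 22 of 33 were positive (48.2% of all). A log2 fold change above 1 was reached by 11 of 33 (3.72% of all). By edgeR's quasi-likelihood test none of them passed an adjusted p of 0.05 over all genes, nor did any other gene (0.0% called), and every one of the 33 had an adjusted p of 0.9999. At an unadjusted p under 0.05, 11 were higher (0.919% of all tested genes) and 0 lower (0.39%).

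**Figure D1:**
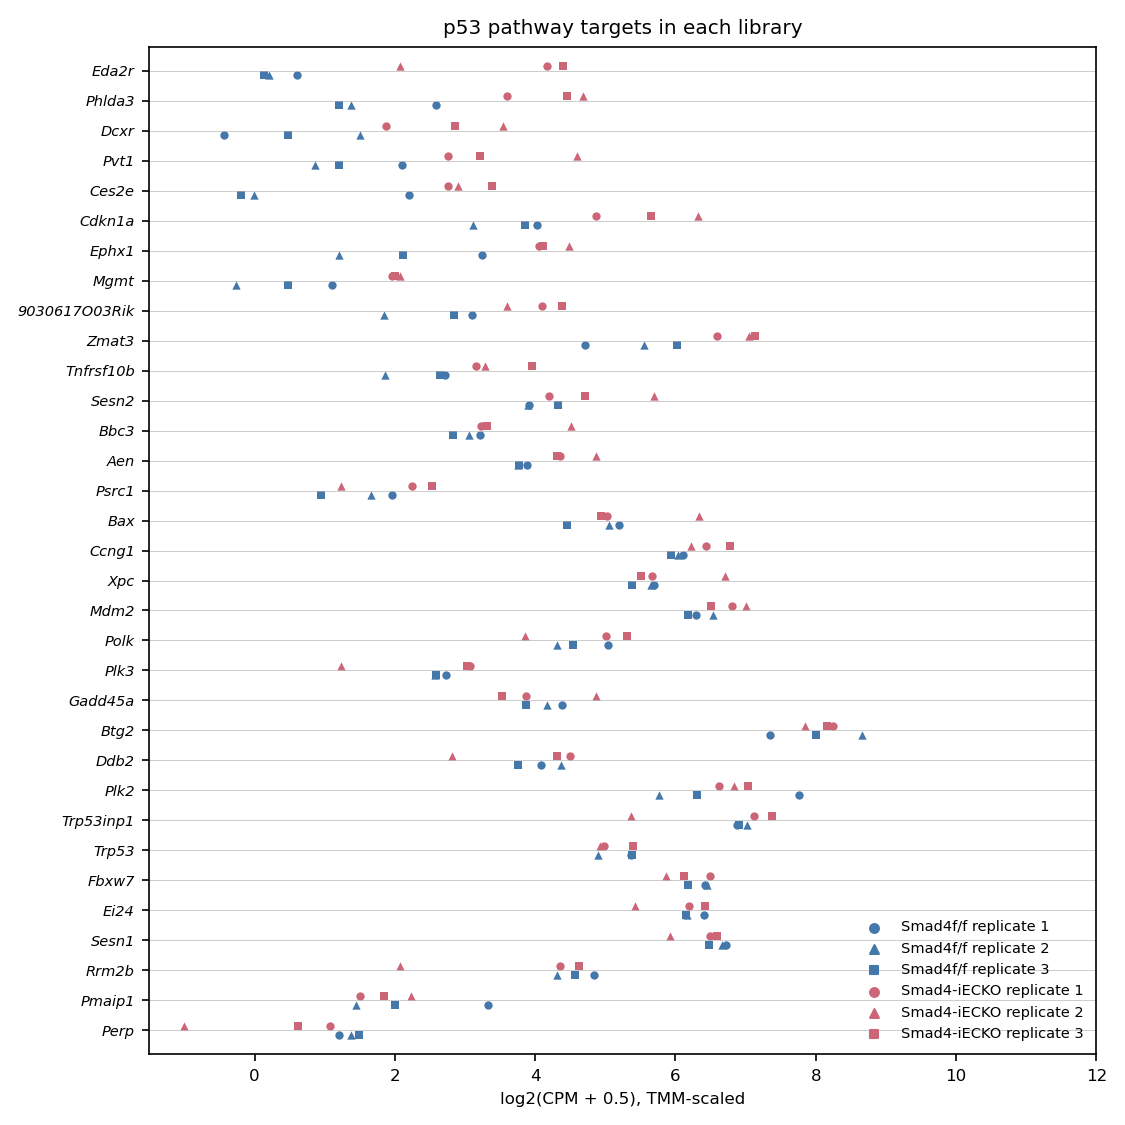
Level of each of the 33 tested genes in each library, as log2(CPM + 0.5) on the horizontal axis, with genes ordered from the highest log2 fold change (top) to the lowest. Blue symbols are the 3 Smad4f/f libraries and red symbols the 3 Smad4-iECKO libraries, with the shape giving the replicate; for 14 genes, of which Eda2r is placed highest and Ccng1 lowest, all red symbols lie to the right of all blue ones.

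The p53 gene differed little between the groups, and its negative regulators Mdm2 and Ccng1 had small positive log2 fold changes. Trp53 (chromosome 11, 69580359 to 69591873, mm10) was at 40.8, 29.4 and 41.2 CPM in replicates 1, 2 and 3 of Smad4f/f, and at 31.0, 29.7 and 41.7 CPM in those of Smad4-iECKO. The groups overlapped almost completely, at 37.1 ± 6.72 and 34.1 ± 6.60 CPM (SD, n = 3 per group here and below), and the log2 fold change from edgeR was -0.12 ± 0.31 (standard error, as in later fold changes). Mdm2 (chromosome 10, 117688875 to 117710758), the ubiquitin ligase for p53 and one of its targets, was at 77.8, 92.0 and 71.6 CPM against 110.9, 128.6 and 90.9 CPM. The lowest Smad4-iECKO library lay just under the highest Smad4f/f library, and the log2 fold change was 0.45 ± 0.28 (standard error). Ccng1 (chromosome 11, 40748552 to 40755311), which encodes the cyclin G1 that acts together with MDM2 and is a p53 target with a site in its promoter, was at 68.5, 65.2 and 60.9 CPM against 86.1, 73.8 and 109.6 CPM. All 3 Smad4-iECKO libraries were above the Smad4f/f libraries, by a log2 fold change of 0.47 ± 0.28, and Ccng1 is just inside the set without overlap while Mdm2 is just outside it.

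Among 8 genes of cell cycle arrest and survival signalling, Cdkn1a, Phlda3 and Zmat3 were higher in every Smad4-iECKO library and the other 5 overlapped. Cdkn1a (chromosome 17, 29090976 to 29100727) was at 15.7, 8.18 and 14.0 CPM in Smad4f/f and 28.6, 79.9 and 49.9 CPM in Smad4-iECKO. Its means were 12.6 ± 3.96 and 52.8 ± 25.7 CPM, a log2 fold change of 2.05 ± 0.45. The highest value came from the shallow replicate 2, and the log2 fold change was 1.62 without that library. Phlda3 (chromosome 1, 135766119 to 135769136), whose PH domain protein holds back AKT, was at 5.51, 2.10 and 1.79 CPM against 11.7, 25.1 and 21.5 CPM. The lowest Smad4-iECKO library was above the highest Smad4f/f library, and the log2 fold change was 2.62 ± 0.58, or 3.29 without Smad4f/f replicate 1. Zmat3 (chromosome 3, 32334792 to 32366014), an RNA-binding zinc finger protein, had the highest counts of the genes without overlap whose log2 fold change was above 1. It was at 25.7, 46.4 and 64.4 CPM against 96.4, 131.9 and 140.0 CPM, a log2 fold change of 1.43 ± 0.38. Values in the 3 Smad4-iECKO libraries were close together, and Smad4f/f replicate 1 was the lowest of the controls.

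The other arrest genes did not follow Cdkn1a. Btg2, an antiproliferative cofactor of mRNA deadenylation, was at 162.7 to 403.5 CPM in Smad4f/f and 228.9 to 303.0 CPM in Smad4-iECKO. Gadd45a, a stress sensor that binds p21 and PCNA, was at 14.1 to 20.3 and 11.1 to 28.8 CPM, with both extremes in the Smad4-iECKO group. Plk2 and Plk3, polo-like kinases of the stress response, had log2 fold changes of -0.03 ± 0.49 and 0.09 ± 0.57. Plk3 was at 6.14, 5.43 and 5.53 CPM against 7.93, 1.86 and 7.64 CPM. The 1.86 CPM of Smad4-iECKO replicate 2 is 4 counts, and the log2 fold change of Plk3 was 0.42 without that library. Plk2 spread from 53.9 to 216.7 CPM within Smad4f/f, wider than the 97.7 to 130.8 CPM of Smad4-iECKO, and its log2 fold change was 0.78 without Smad4f/f replicate 1, the highest control. Psrc1, a spindle protein, was at 3.39, 2.67 and 1.42 CPM against 4.22, 1.86 and 5.26 CPM, where the 1.86 CPM of replicate 2 is 4 counts. For these genes the spread within a group was as large as any difference between the groups.

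The cell death genes included receptors and effectors inside the cell, and the receptor Eda2r had the largest fold change of the 33 genes. Eda2r (chromosome X, 97333840 to 97377216), a TNF receptor family member that binds ectodysplasin A2, was at 1.02, 0.658 and 0.598 CPM in Smad4f/f, from 13, 16 and 8 counts. It was at 17.4, 3.71 and 20.5 CPM in Smad4-iECKO, from 314, 8 and 257 counts. Replicate 2 thus held less than the other Smad4-iECKO libraries, though still more than any control. The log2 fold change was 4.22 ± 0.71, and leaving out 1 library at a time gave 3.84 to 4.61. Tnfrsf10b, the mouse receptor for TRAIL, was at 6.06, 3.12 and 5.76 CPM against 8.43, 9.29 and 15.1 CPM, a log2 fold change of 1.14 ± 0.49. Fas, the receptor for FAS ligand, was too low to test, at 3.62, 0.576 and 0.523 CPM against 1.11, 0 and 0.398 CPM, where the 0 comes from the shallow library and allows up to 1.39 CPM.

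Bbc3 and Bax, effectors of mitochondrial death, were close to the controls in 2 of the 3 Smad4-iECKO libraries. Bbc3, which encodes the BH3-only protein PUMA, was at 8.74, 7.81 and 6.58 CPM against 8.88, 22.3 and 9.40 CPM. The lowest Smad4-iECKO library was barely above the highest control, and without replicate 2 of Smad4-iECKO the log2 fold change went from 0.77 to 0.22. Bax (chromosome 7, 45461697 to 45466898), the pore-forming partner of BAK, was at 36.3, 32.7 and 21.5 CPM against 32.1, 80.3 and 30.0 CPM, and its log2 fold change of 0.64 ± 0.44 became 0.01 without replicate 2. Both genes were thus set apart by replicate 2 of Smad4-iECKO. Aen, a nuclease that promotes apoptosis, was at 14.3, 12.95 and 13.08 CPM against 19.9, 28.8 and 19.3 CPM, a log2 fold change of 0.74 ± 0.34 that was 0.52 without the same library. The 3 controls of Aen lay close together. Pmaip1, which encodes the BH3-only protein NOXA, was at 9.53, 2.22 and 3.51 CPM against 2.33, 4.18 and 3.11 CPM, with the highest value in a control. Its log2 fold change of -0.70 ± 0.69 was 0.12 without that control, Smad4f/f replicate 1. Trp53inp1 and Ei24, which act in autophagy and cell death, had log2 fold changes of -0.08 ± 0.45 and -0.17 ± 0.32. Trp53inp1 was at 138.1 and 165.7 CPM in Smad4-iECKO replicates 1 and 3 and at 40.9 CPM in replicate 2, on either side of the 116.8 to 129.5 CPM of the controls. Perp, a membrane protein of desmosomes and a p53 effector, was at 1.81, 2.10 and 2.32 CPM against 1.61, 0 and 1.04 CPM, and the 0 in replicate 2 allows up to 1.39 CPM. All 3 Smad4-iECKO values were below the controls, on at most 29 counts each, and after thinning to equal depth the groups overlapped. The log2 fold change of -0.99 ± 0.84 was -1.61 without Smad4-iECKO replicate 1.

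Of the DNA repair genes only Mgmt was apart between the groups. Mgmt (chromosome 7, 136894614 to 137130266), which removes alkyl groups from guanine, was at 1.65, 0.329 and 0.897 CPM against 3.38, 3.71 and 3.50 CPM, a log2 fold change of 1.89 ± 0.77 that was 2.54 without Smad4f/f replicate 1. The 3.71 CPM of replicate 2 rests on 8 counts, and so does the 0.329 CPM of Smad4f/f replicate 2. The damage sensors of nucleotide excision repair overlapped, Xpc at 41.3 to 51.4 against 45.2 to 103.5 CPM and Ddb2 at 13.01 to 20.2 against 6.50 to 22.03 CPM. The log2 fold change of Xpc, 0.47 ± 0.37, was -0.02 without Smad4-iECKO replicate 2. Polk, a translesion polymerase, and Rrm2b, a ribonucleotide reductase subunit, had log2 fold changes of 0.21 ± 0.42 and -0.51 ± 0.56. Rrm2b was at 20.0 and 24.1 CPM in Smad4-iECKO replicates 1 and 3, within the 19.3 to 28.1 CPM of the controls, and at 3.71 CPM in replicate 2.

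Enzymes of xenobiotic and sugar metabolism were among the genes with the largest differences. Dcxr (chromosome 11, 120725399 to 120727281), a reductase of dicarbonyls and L-xylulose, was at 0.236, 2.34 and 0.897 CPM in Smad4f/f, from 3, 57 and 12 counts, and at 3.16, 11.1 and 6.77 CPM in Smad4-iECKO. The log2 fold change was 2.51 ± 0.87, and in ratio the controls differed by more among themselves than the Smad4-iECKO libraries did. It was 3.55 without Smad4f/f replicate 2. Ces2e (chromosome 8, 104926260 to 104934672), a carboxylesterase, was at 4.09, 0.493 and 0.374 CPM against 6.27, 6.96 and 9.95 CPM, a log2 fold change of 2.25 ± 0.91. Its Smad4f/f replicate 1 lay close to the Smad4-iECKO group, and the log2 fold change was 4.11 without that library. Ephx1 (chromosome 1, 180976210 to 181020904), the microsomal epoxide hydrolase, was at 8.98, 1.81 and 3.81 CPM against 16.1, 21.8 and 16.8 CPM, a log2 fold change of 1.91 ± 0.59 that was 2.69 without the same control. The sestrins restrain mTORC1 under stress. Sesn2 was at 14.5, 14.4 and 19.6 CPM against 17.9, 51.1 and 25.6 CPM, just short of separation, and Sesn1 had a log2 fold change of -0.26 ± 0.29. Gdf15, a secreted stress cytokine, was at 0.157 to 1.42 CPM in Smad4f/f and 0 to 0.721 CPM in Smad4-iECKO and was not tested.

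The remaining genes were Pvt1, 9030617O03Rik and Fbxw7. Pvt1 (chromosome 15, 62037986 to 62378096), a long noncoding RNA next to Myc, was at 3.78, 1.32 and 1.79 CPM against 6.27, 23.7 and 8.76 CPM, a log2 fold change of 2.45 ± 0.69. It was 1.70 without Smad4-iECKO replicate 2, the library with the highest value. 9030617O03Rik (chromosome 12, 100779057 to 100896981), named Dglucy in GENCODE M21 and encoding D-glutamate cyclase, was at 8.11, 3.08 and 6.65 CPM against 16.6, 11.6 and 20.3 CPM, a log2 fold change of 1.46 ± 0.48. Here replicate 2 was the lowest library in both groups. Fbxw7, the substrate receptor of a ubiquitin ligase for cyclin E and MYC, had a log2 fold change of -0.16 ± 0.29.

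**Figure D2:**
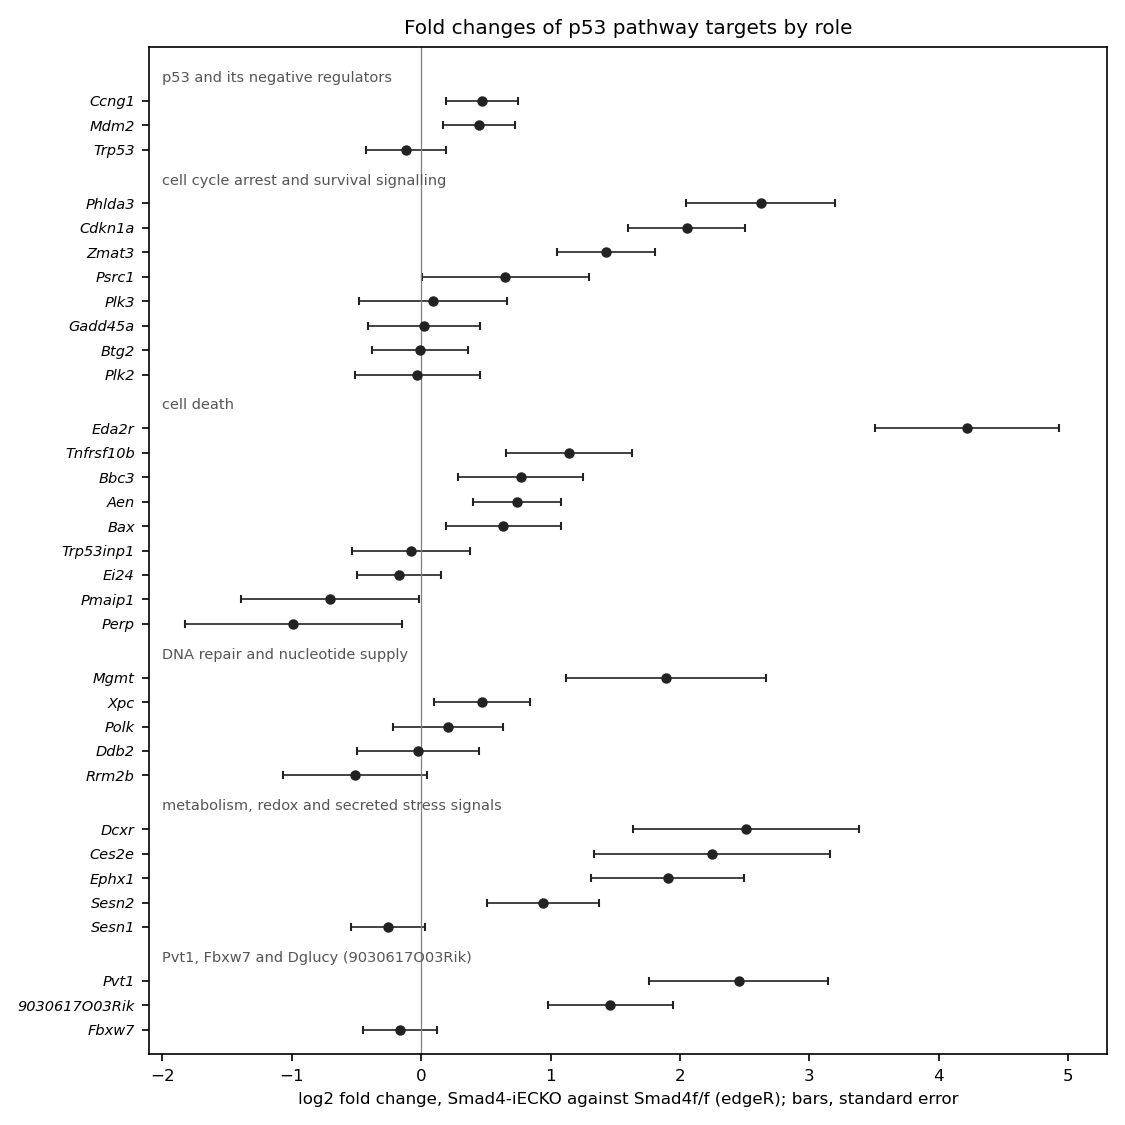
Log2 fold change of each of the 33 tested genes (horizontal axis, Smad4-iECKO against Smad4f/f, edgeR), grouped by role; points are estimates from 3 libraries per group and bars are standard errors. All 6 roles hold genes on both sides of 0, and Eda2r, at 4.22, lies farthest to the right.

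Compared per exonic length, the genes spanned a wide range of levels. Among controls the mean RPKM (CPM divided by exon length in kilobases) ran from 0.129 for Eda2r to 100.005 for Btg2. Plk2 (25.9), Sesn1 (24.6), Bax (19.1), Trp53inp1 (18.8), Ccng1 (18.5) and Mdm2 (15.8) were also high on this scale, and each had a log2 fold change under 1. The genes with log2 fold changes above 1 all had mean control levels of 3.98 (Zmat3) or less. In Smad4-iECKO the highest of these were Cdkn1a (14.9), Phlda3 (12.4) and Zmat3 (10.7). Control counts behind these folds ran from 8 to 16 for Eda2r and from 326 to 1129 for Zmat3. Exons of 8 genes overlap those of a gene on the opposite strand in GENCODE M21 (Cdkn1a, 9030617O03Rik, Pvt1, Gadd45a, Plk3, Rrm2b, Ddb2 and Ei24), and whether counting used strand is not given in the sources used here, so reads from both strands cannot be told apart for these genes. Exons of Ephx1 and Bax overlap, on the same strand, a pseudogene (Gm36961) and a readthrough model (Gm45808), and those of Pvt1 small noncoding RNAs.

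The comparison was recomputed within title prefixes. In prefix 38 alone (2 against 2 libraries) 26 of the 33 genes had positive log2 fold changes (48.7% of all tested genes), and 20 were higher without overlap (16.3% of all genes tested there) and 2 lower (14.8%). The 14 genes listed above are among the 20 by construction, since prefix 38 is a subset of the libraries that chose them; the other 6 were Psrc1, Mdm2, Plk3, Btg2, Ddb2 and Trp53inp1. In the prefix 40 pair (1 against 1, no test, log2 ratios of CPM + 0.5) 22 of 33 were above 0 (47.5% of all tested genes), and 18 were above 0 in both. All 14 must be above 0 in this pair too, and 13 had a ratio above 1; Ccng1, at 0.18, did not. Cdkn1a was at 1.38 in prefix 38 and 3.21 in prefix 40, Pvt1 at 1.41 and 3.74, and Ephx1 at 1.34 and 3.27. Eda2r went the other way, at 4.52 and 1.86. Trp53inp1 (0.35 and -1.65), Ddb2 (0.47 and -1.57) and Plk3 (0.40 and -1.33) had opposite signs in the prefixes. The prefix 40 Smad4-iECKO library is also the shallow one, so prefix and depth cannot be told apart there, and the endothelial markers summed to 1924 CPM in its Smad4f/f partner and 6982 CPM in itself.

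**Figure D3:**
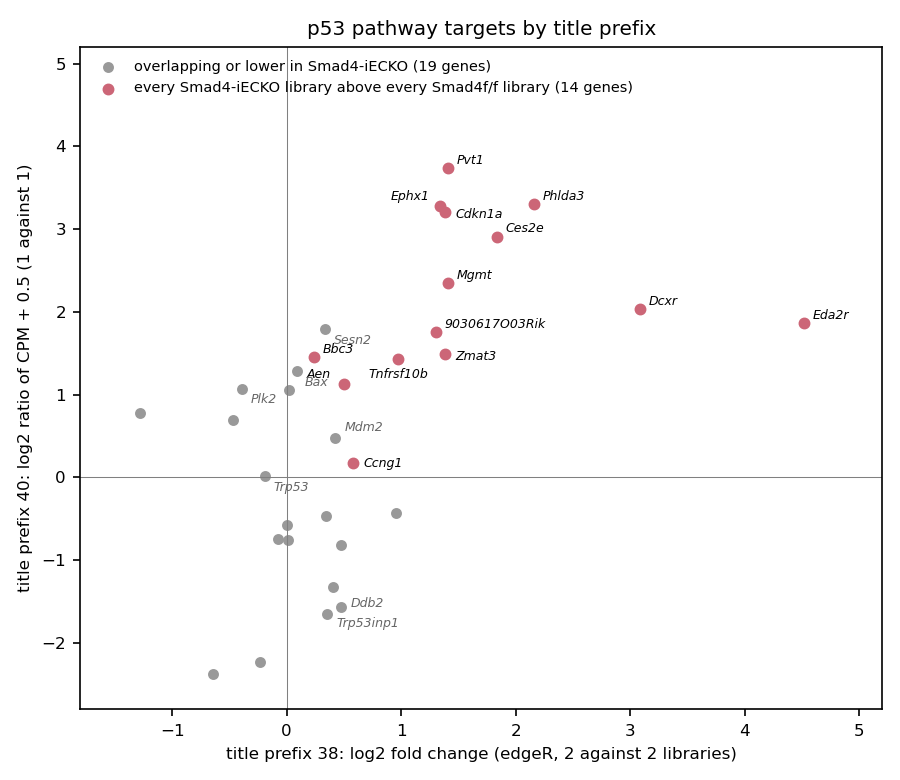
Log2 fold change of the 33 tested genes within prefix 38 (horizontal axis, edgeR, 2 against 2 libraries) and log2 ratio within prefix 40 (vertical axis, CPM + 0.5, 1 against 1 library). Red points are the 14 genes whose groups do not overlap over all libraries, which by itself puts them above 0 on both axes; grey points are the other 19.

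Among the 14 genes, the highest Smad4-iECKO value came from replicate 2 in 8, from replicate 3 in 6 and from replicate 1 in 0. Replicate 1 was the lowest of the Smad4-iECKO libraries in 10 of the 14, and in endothelial markers it was also the lowest of the 3, at 3387 CPM. Adding the mean log2 level of the endothelial markers, whose sums overlapped between the groups, as a covariate left the median of the 33 genes at 0.47. That median is the value of 1 gene, Ccng1, and single genes moved in either direction. Ces2e went from 2.25 to 2.79 and Sesn2 from 0.94 to 0.91. The part of cell content was not tested. When all libraries were thinned to 2233360 counts, 27 of the 33 genes passed the filter, and 9 of these were higher without overlap (2.83% of all genes tested after thinning) and 0 lower (2.97%): Cdkn1a, Phlda3, Zmat3, Ephx1, 9030617O03Rik, Pvt1, Ccng1, Tnfrsf10b and Aen. Eda2r and Mgmt also stayed without overlap but were under the filter, while Dcxr, Ces2e and Bbc3 overlapped.

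DESeq2 and limma-voom with sample weights made calls among these genes. DESeq2 called 3 of the 35 (Eda2r, adjusted p = 2.34e-06, Phlda3, adjusted p = 0.0131, and Cdkn1a, adjusted p = 0.0319), all higher, where 0.0458% of all genes with an adjusted p were called higher and 0.0153% lower. In 6 DESeq2 fits that each left out 1 library, Eda2r was called in 6, and Phlda3 and Cdkn1a in 2 each. Both lost their DESeq2 call without Smad4f/f replicate 2, Smad4f/f replicate 3, Smad4-iECKO replicate 2 or Smad4-iECKO replicate 3. Limma-voom with sample quality weights called Eda2r (adjusted p = 0.0133; 0.0557% of all tested genes were called higher), and limma-voom without weights called 0. The authors' deposited table listed 17 of these genes as higher with an adjusted p under 0.05 (7.7% of its genes) and 1, Perp, as lower (5.69%). For Cdkn1a the authors' deposited table gave a log2 fold change of 1.82 ± 0.22 (standard error), while DESeq2 on 1 column per sample gave 2.07 ± 0.48. For Mdm2 the authors' deposited table gave 0.44 ± 0.10 (adjusted p = 0.000504), and DESeq2 here gave 0.45 ± 0.33. The count table held 3 identical columns for each sample. Whether the authors' test used them as replicates is not given in the sources used here, so the authors' calls are shown only as listed.

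Other genes of the pathway were taken from lists by function. The p53 targets among them are what was left once the set was chosen with results known. Their difference from the set was thus partly fixed by that choice. Of 87 tested p53 targets outside the set, 0 passed edgeR's test, 51 were positive and the median log2 fold change was 0.07. At an unadjusted p under 0.05, 3 of them had a positive log2 fold change (Thbs1, Igfbp3 and Epha2, beside 0.919% of all tested genes) and 1 a negative one (Casp6, beside 0.39%). DESeq2 called Thbs1 (0.0458% of all genes with an adjusted p were called higher). Thbs1 and Igfbp3 were called by limma-voom with sample quality weights (0.0557% of all tested genes were called higher). In 7 of the 87 every Smad4-iECKO library was above every control (2.48% of all tested genes did so), and in 0 every one was below (2.83% of all). These 7, named after their values were seen, were Thbs1, Igfbp3, Epha2, Pidd1, Apaf1, Trp53cor1 and Ercc5. Thbs1, the matrix glycoprotein thrombospondin, was at 15.6, 8.18 and 10.4 CPM against 55.1, 62.2 and 80.3 CPM, and Igfbp3, a carrier of insulin-like growth factors, at 305.3, 102.3 and 96.96 CPM against 446.7, 513.99 and 785.9 CPM. Both also have inputs other than p53. Apaf1, the scaffold of the apoptosome, was at 64.0 to 77.6 CPM against 85.9 to 110.2 CPM, a log2 fold change of 0.42 ± 0.27. Trp53cor1, the long noncoding RNA transcribed upstream of Cdkn1a, was at 1.64 to 1.89 CPM against 2.33 to 4.18 CPM, a log2 fold change of 0.80 ± 0.62. Differences in these last genes were small beside those of Cdkn1a and Phlda3.

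Regulators upstream of p53 and lists downstream of p21 showed no calls either. Of 30 tested kinases, ligases and cofactors of p53, 15 were positive and 15 negative (median 0.01). The smallest unadjusted p values in this list belonged to the ribosomal protein gene Rpl5 (log2 fold change -0.89 ± 0.43), to Ppp1r13l, an inhibitor of p53 (1.02 ± 0.51), and to the checkpoint kinase gene Chek1 (-1.08 ± 0.90). Of 46 cell cycle genes that p53 and p21 repress through the DREAM complex, 15 were positive and 31 negative (median -0.18), and 0 passed edgeR's test, with 0 at an unadjusted p under 0.05. The sign of this median was not stable: it was 0.46 without Smad4f/f replicate 1, 0.06 by limma-voom, 0.28 by its version with sample weights, 0.03 with the endothelial covariate and -0.50 in prefix 38 alone. Of its genes with the smallest unadjusted p, Chek1 is given above, and E2f1, a cell cycle transcription factor, had a log2 fold change of 0.42 ± 0.36 with all Smad4-iECKO libraries above the controls. Cdk1, the mitotic kinase, was at 47.6, 7.11 and 18.02 CPM against 15.8, 6.96 and 16.9 CPM, and the high mean of the controls rests on Smad4f/f replicate 1. Among 6 tested inhibitors of cyclin-dependent kinases other than Cdkn1a, 2 were positive (median -0.14), and the median was 0.30 without Smad4f/f replicate 1, 0.09 without Smad4-iECKO replicate 1 and 0.07 with the endothelial covariate. Cdkn2c had a log2 fold change of -0.59 ± 0.53, Cdkn1b, which encodes p27, -0.26 ± 0.29 and Cdkn2d 0.26 ± 0.47. Of 26 tested BCL2 family, caspase and death receptor genes outside the set, 13 were positive (median -0.01, or 0.26 without Smad4f/f replicate 1). Bcl2, which restrains apoptosis, and Hrk, a BH3-only gene, had log2 fold changes of 0.64 ± 0.37 and 0.81 ± 0.56. Bik, the one farthest from 0, was at 0.617 to 1.35 CPM in the controls and at 0.943, 9.75 and 1.35 CPM in Smad4-iECKO, high in replicate 2 alone. No gene of these lists was called by DESeq2.

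Stress lists that share triggers with the p53 response were examined beside it. Of 21 genes of the integrated stress response, which include Sesn2, 9 were positive (median -0.01, and -0.05 to 0.05 when each library was left out). Beside Sesn2, its smallest unadjusted p values belonged to Phgdh (log2 fold change 0.67 ± 0.67), a serine synthesis enzyme, and Xbp1 (-0.36 ± 0.37), a factor of the unfolded protein response. Of 22 tested immediate early genes, which mark tissue dissociation among other stimuli, 17 were positive (median 0.41), but without Smad4-iECKO replicate 2 the median was -0.05. Dusp1 led this list, at 19.7, 29.6 and 17.3 CPM against 26.7, 107.3 and 50.9 CPM. The AP-1 genes Fosl2 and Jun had log2 fold changes of 0.94 ± 0.51 and 0.56 ± 0.32, and Jun was above the controls in all 3 Smad4-iECKO libraries. Of 16 tested xenobiotic and NRF2 genes, 7 were positive (median -0.06, or 0.16 without Smad4-iECKO replicate 2). Gsta4, a glutathione transferase, was at 16.5, 12.4 and 10.02 CPM against 6.38, 7.43 and 8.60 CPM, lower in all 3 Smad4-iECKO libraries. Gsr, the glutathione reductase, and Akr1b8, an aldo-keto reductase, had log2 fold changes of -0.40 ± 0.33 and 0.90 ± 0.76. Of 14 senescence-associated secreted factors only 6 passed the filter, 5 of them positive (median 0.59), led by Igfbp3 and Igfbp5 (log2 fold change 1.25 ± 0.50). Leaving out Smad4f/f replicate 1 gave a median of 1.58, and leaving out replicate 2 of that group gave 0.35. Igfbp3 was called by limma-voom with sample quality weights and by DESeq2 without Smad4f/f replicate 1; edgeR and DESeq2 on all libraries called 0 genes of these stress lists.

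**Figure D4:**
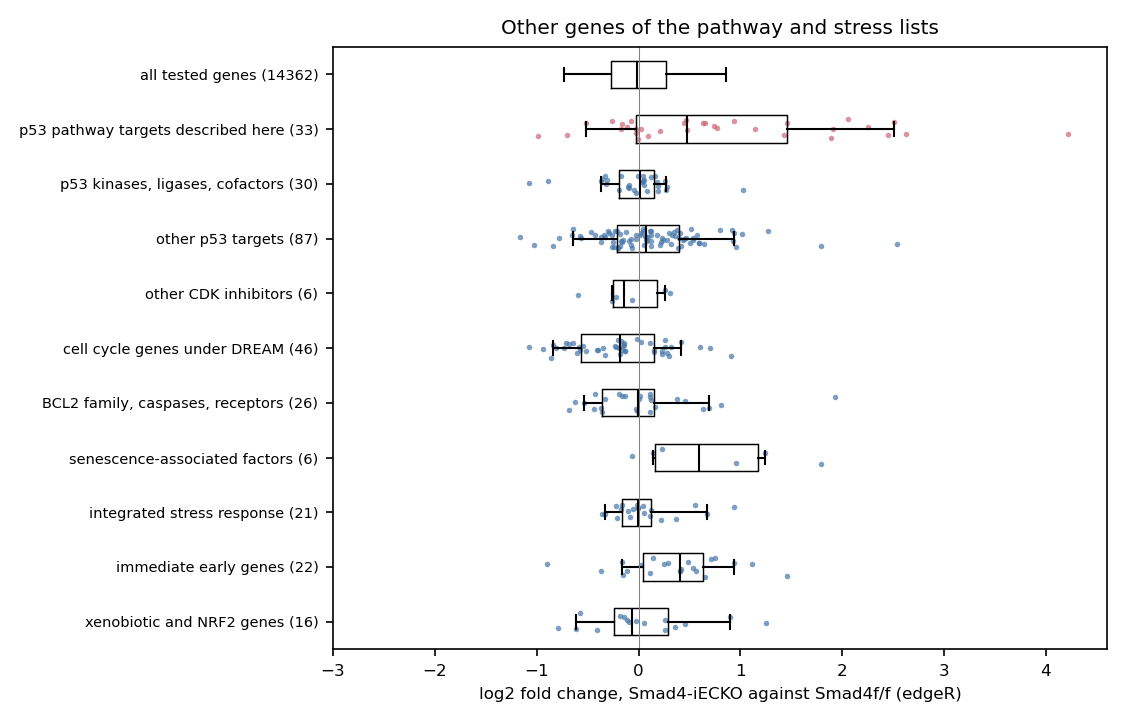
Log2 fold changes (horizontal axis, Smad4-iECKO against Smad4f/f, edgeR) of the 33 tested genes described here (red points), of 9 lists of other genes (blue points) and of all 14362 tested genes (box only), with the number of tested genes in brackets. Boxes show the quartiles with the median as a line, and whiskers reach from percentile 5 to percentile 95; the red genes have a median of 0.47, the 87 other p53 targets 0.07 and all genes -0.02.

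The promoter sites shown above can be set beside the values. Of the 14 genes without overlap, 11 had a RefSeq promoter, 3 of these held an exact decamer (Cdkn1a, Ccng1 and Aen) and 2 a full site (Cdkn1a and Ccng1). Of the other 19 tested genes, 13 had a promoter, 7 of these held an exact decamer and 3 a full site (Bax, Gadd45a and Sesn1). Eda2r, Phlda3, Dcxr, Ces2e, Ephx1, Mgmt, 9030617O03Rik and Bbc3 had no match in the windows searched.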

How the data were processed

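RNA from 6 samples had been made into TruSeq libraries, per the labels' protocols. STAR, DESeq2 and the mm10 build are named, without versions, in the submitters' processing notes; counter, annotation and use of strand: not given in the sources used here. The deposited table holds raw counts per gene in 18 columns, 3 identical ones per sample, of which 1 each was used. The authors' deposited comparison table gives a mean signal (baseMean), log2 fold changes with standard errors, a score (the test statistic) and p-values, and was used only where it is named.

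Counts were tested with edgeR 4.0.16 in R 4.3.3 (TMM scaling, filterByExpr with a minimum count of 10 and a total of 15, quasi-likelihood F-test, Benjamini-Hochberg adjustment over 14362 genes, threshold 0.05), after a test on simulated data. DESeq2 1.42.0, limma 3.58.1, other scalings and filters, thinning, leaving out each library, title prefix and endothelial level as terms were the alternatives. Every CPM uses TMM-scaled totals, and 3 counts stand for the limit of a 0, which covers counting error only. Levels per length use GENCODE M21 exons, and promoters are RefSeq's.

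The 35 genes and all lists were chosen with earlier results of these data known. All genes of the set were described, with full statistics for the 10 with the largest log2 fold changes and for Trp53, Mdm2, Ccng1 and Bax; of other lists, the 3 genes with the smallest unadjusted p were named, except 1 gene that is not reported here, and any further gene was chosen after its values were seen.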

Additional observations from a re-analysis of the deposited data

How the results depend on the processing

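No gene passed edgeR's adjusted threshold under other scalings, other filters, robust dispersion, an adjusted p of 0.10, the title prefix as a block or the endothelial covariate. DESeq2 called 12 genes, 3 of them in the set and 1 in the other pathway lists, and limma-voom with sample quality weights called 8, 1 and 2. With DESeq2, leaving out each library (added after seeing the data) gave 4 to 35 genes, 1 to 6 of the set and 1 to 2 of the other lists; the lowest totals came without Smad4f/f replicate 3 or Smad4-iECKO replicate 3, and the highest without Smad4f/f replicate 1, with 16 without Smad4f/f replicate 2. The median of the set was 0.38 to 0.78 over the edgeR fits that leave out a library and up to 0.77 over the DESeq2 ones, both highest without Smad4f/f replicate 1. Genes of the set higher without overlap numbered 20 in prefix 38 alone and 15 to 17 over the leave-one-out settings, where fewer libraries make overlap rarer, and genes lower without overlap 2 and 1 to 2; thinned to equal depth, 9 were higher and 0 lower, with fewer genes tested. For other changes the cause was not tested. Of 786 single-gene values, 761 stayed within the spread between replicates and 25 moved beyond it. The labels give no replicate numbers to pair libraries by; the title prefix was the only block that could be fitted. The 2233360 counts of Smad4-iECKO replicate 2 limit what can be read from genes near 1.39 CPM.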
